A study of Mus musculus and Homo sapiens with 10 samples.

Results

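Broad KAP1 peaks off L1 are the stretches of the mouse genome where KAP1 signal was called over more than 2000 bp in 1 piece and which share no base with a listed L1 copy. They were chosen by 2 measured properties of each peak, its width (end minus start) and its position against the 14949 L1 copies of at least 5000 bp in the deposited mouse L1 list. Of 45049 KAP1 peaks, 1609 met both conditions, which is 3.57% of the list and 3.73% of the 43119 peaks off L1. The peaks they are set against are the 41510 narrower peaks off L1, and, for a few values, the 38 broad and 1892 narrower peaks on L1.

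The KAP1 peaks came from 1 chromatin immunoprecipitation (ChIP) library of wild-type J1 cells, a male mouse embryonic stem cell line of strain 129S4/SvJae, precipitated with a custom rabbit antibody. The Gm6871 peaks, 1277 in all, came from 1 ChIP library of ES3 cells of strain C57BL/6 that carried a vector for HA-tagged Gm6871. That vector had been switched on with doxycycline for 2 days, and the tag was precipitated with a mouse anti-HA antibody. The title of the KAP1 list also carries the tag 2i, the usual name of a medium with inhibitors for naive embryonic stem cells, which the labels of neither library state. The lists thus differ in line, strain and antibody, may differ in medium, and the Gm6871 sites are those of an overexpressed, tagged protein. No RNA of J1 cells was analysed here, so the labelled cell type was not checked against markers. Neither ChIP had a replicate, so no difference between the lists can be set against replicate spread. Intervals given with shares are exact (Clopper-Pearson) 95% binomial intervals and cover counting error only, and peaks of 1 library are not independent replicates. Where a count is 0, the share given as allowed is that of 3 counts of the total, a simple limit that lies below the upper bound of the exact interval at these numbers. Read depth is not recorded in the peak lists.

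KAP1, also called TRIM28, is a corepressor without DNA binding of its own. Zinc finger proteins with a KRAB domain bring it to their target sequences, and it recruits SETDB1, which methylates histone H3 at lysine 9. The silent chromatin formed in this way can spread from the site of recruitment. In embryonic stem cells the system is known for keeping retrotransposons silent, endogenous retroviruses and L1 elements among them, and for holding the methylation mark of imprinted control regions. Gm6871 is a KRAB zinc finger protein of the mouse. All positions are those of build mm9, counted from 1. No mm9 annotation or sequence was used here, so no gene or other repeat is assigned to a peak, and "off L1" says only that none of the listed L1 copies was touched.

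Most members lay just above the width limit. Their median width was 2423 bp, the middle range ran from 2171 to 2890 bp, and 10% were wider than 3722 bp. Narrower peaks off L1 had a median width of 898 bp. There were 350 members over 3000 bp and 51 over 5000 bp. Together the members covered 4.40 Mb, against 39.2 Mb for the narrower peaks. The 5 widest were chr10:82870575-82882508 (11934 bp), chr4:146839042-146849702 (10661 bp), chr4:146025806-146035961 (10156 bp), chr10:41514488-41523932 (9445 bp) and chr15:100370497-100379934 (9438 bp). Their deposited scores lay between 2709.17 and 3211.51. The widest of all had 28 other KAP1 peaks within 50 kb, the nearest 89 bp away, whereas the peak at chr4:146025806-146035961 had 1 within 50 kb, at a gap of 34105 bp. The widest members thus differed among themselves in how crowded their surroundings were.

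The score is the peak caller's own value for each peak, starts at 50 in this list, and was not used to choose the members, but it comes from the same signal as the width. Members had a median score of 501.77 and a middle range of 311.38 to 888.23. The narrower peaks had a median of 98.51 and a middle range of 66.77 to 171. Across the 43119 peaks off L1, wider peaks had higher scores (Spearman's rho 0.61), and within the members the relation was looser (rho 0.36). Both are across peaks of 1 library that share its depth. Few weak peaks were broad: of those off L1 with a score up to 100, 15 were members (0.0710%), while 35.1% of those over 800 were. The highest score in the list, 3230.05, belonged to the member chr6:30686263-30689908. Among the members it was followed by chr4:146025806-146035961 (3211.51), chr10:19735165-19738825 (3163.27), chr15:100370497-100379934 (3118.73) and chr1:8776551-8780571 (3100), the last being the first by position of 20 members tied at that score.

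The width limit cut through a continuous range. The 5 members just inside it were 2001 or 2002 bp wide, with scores of 160.48, 832.49, 403.17, 527.87 and 150.29. They lay at chr16:9243800-9245800, chr16:62388419-62390419, chr3:101047265-101049265, chr10:36642787-36644788 and chr11:53124265-53126266. The 5 peaks just outside were 1999 or 2000 bp wide, with scores of 234.67, 270.56, 185.04, 291.39 and 529.2. They lay at chr13:23673203-23675202, chr6:47403580-47405579, chr6:49190507-49192506, chr13:40812036-40814034 and chr18:37139375-37141373. The scores on either side of the limit overlapped.

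**Figure D1:**
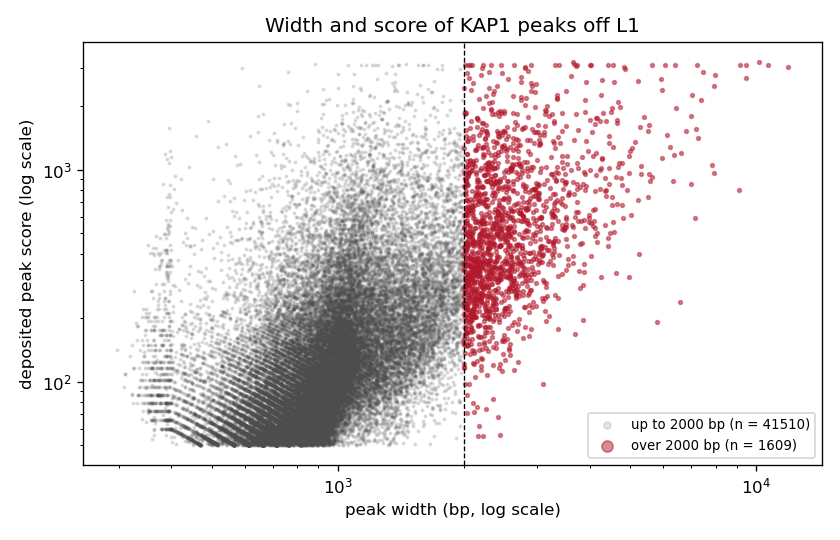
Width (bp, log scale) against the deposited score (log scale) of each KAP1 peak off L1, with 1609 members in red, 41510 narrower peaks in grey and the limit of 2000 bp as a dashed line. Wide peaks tend to have high scores, no break marks the limit, and a row of points sits at a score of 3100.

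Broad peaks were unevenly spread over the chromosomes. Chromosome 8 held the most, with 160 of 2678 off-L1 peaks being broad (5.97%, interval 5.11 to 6.94%), followed by chromosome 11 with 138 of 2951 (4.68%, 3.94 to 5.501%). At the other end of the autosomes stood chromosome 14, with 41 of 1653 (2.48%, 1.79 to 3.35%), and chromosome 1, with 83 of 2969 (2.80%, 2.23 to 3.45%). Over the 19 autosomes together, 1604 of 42246 were broad (3.80%, 3.62 to 3.98%). On the X chromosome only 5 of 844 were (0.592%, 0.193 to 1.38%), and on Y 0 of 29, which by 3 counts allows a share of up to 10.3% (exact upper bound 11.9%). The interval of chromosome 8 lay above those of chromosomes 1, 2, 3, 4, 5, 7, 9, 12, 13, 14, 15, 18 and 19. It overlapped those of chromosomes 6, 10, 11, 16 and 17. The interval of X lay below that of each autosome.

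**Figure D2:**
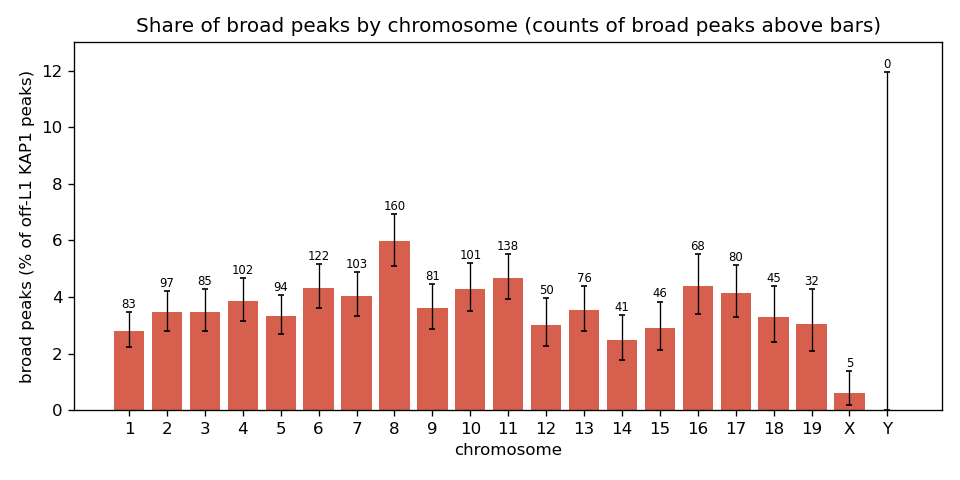
Share of broad peaks among the KAP1 peaks off L1 on each chromosome (%), with exact 95% binomial intervals as error bars and the number of broad peaks above each bar. Chromosome 8 has the tallest bar at 5.97%, X has 0.592%, and the wide interval of Y comes from only 29 peaks.

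The contrast between chromosomes was also seen among peaks of like score, for chromosome 8 most clearly at scores up to 400 and for X only at scores over 200. The median score off L1 was 102.17 on chromosome 8, 98.33 on chromosome 11, 102.21 on the other autosomes and 105.17 on X. The median width was 996, 945, 902 and 771.5 bp in the same order, and 10% of peaks were wider than 1727, 1596, 1487 and 1084 bp. The order of the chromosomes in width thus held in the middle of the range as well as at its upper end. Among peaks with scores over 200 and up to 400, 70 of 390 on chromosome 8 were broad (17.9%, 14.3 to 22.1%) and 54 of 367 on chromosome 11 (14.7%, 11.3 to 18.8%). The other autosomes had 377 of 5105 (7.38%, 6.68 to 8.14%), and X had 0 of 98, which by 3 counts allows up to 3.06% (exact upper bound 3.69%). Over a score of 400 the shares were 31.9% (25.5 to 38.7%) on chromosome 8, 32.9% (26.5 to 39.7%) on chromosome 11 and 24.9% (23.5 to 26.4%) on the other autosomes. X had 3 of 70 (4.29%, 0.893 to 12.0%). At a score up to 200, chromosome 8 had 25 broad peaks of 2084 (1.20%, 0.778 to 1.77%) and the other autosomes 88 of 28136 (0.313%, 0.251 to 0.385%). X, with 2 of 676 (0.296%, 0.0358 to 1.06%), did not stand apart in that band, which held most of its peaks. The intervals of chromosome 8 and the other autosomes were apart in the lower 2 of these 3 bands and overlapped in the highest.

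Members on chromosome 8 were accordingly of lower score, and those on chromosome 11 lay between them and the rest. The median score on chromosome 8 was 339, against 533 for members on the autosomes other than 8 and 11. Of the chromosome 8 members 59.4% scored 400 or less, against 35.6%. On chromosome 11 the median was 399, and 50% scored 400 or less. The median width of members on chromosome 8, 2500 bp, was close to the 2412 bp on the autosomes other than 8 and 11. The 5 members on X lay at chrX:4780468-4782814, chrX:30385503-30387840, chrX:85835869-85838564, chrX:120115539-120117762 and chrX:120216106-120218579. They were 2224 to 2696 bp wide, with scores from 55.57 to 1229.58. X differed in other ways too: it carried 5.16 off-L1 KAP1 peaks per Mb between its first and last peak, against 13.7 on chromosome 14 and 24.8 on chromosome 11. It also held 10.5 listed L1 copies per Mb, against 5.22 on chromosome 8. The number of copies of each chromosome in the cells was not analysed here.

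Broad peaks had close KAP1 neighbours. The gap from the edge of a member to the nearest other KAP1 peak, on or off L1, had a median of 1526 bp and a middle range of 357 to 5226 bp. For narrower peaks off L1 the median was 6749 bp and the middle range 1693 to 23118 bp. A further KAP1 peak lay within 1 kb of 42.2% of members (39.8 to 44.7%) and of 18.4% of narrower peaks (18.0 to 18.8%). Within 10 kb the shares were 1354 of 1609 members (84.2%, 82.3 to 85.9%) and 24012 of 41510 narrower peaks (57.8%, 57.4 to 58.3%), beside 58.8% over all peaks off L1. Members had a median of 6 other peaks within 50 kb and at most 33, and narrower peaks a median of 3 and at most 32. The gap is measured from the edges, and where near stretches are joined or kept apart is set by the peak caller, so spacing and width are not independent. Between midpoints the medians were 3612 bp for members and 7752 bp for narrower peaks.

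**Figure D3:**
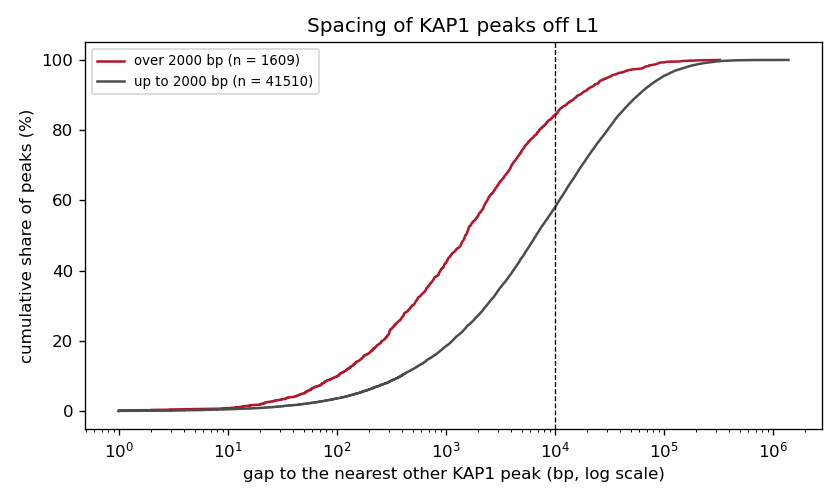
Cumulative share of peaks (%) by gap to the nearest other KAP1 peak (bp, log scale), for members (red) and narrower peaks (grey), both off L1, with 10 kb as a dashed line. The red curve lies to the left, reaching 84.2% at 10 kb where the grey curve reaches 57.8%.

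The closer spacing was also present among peaks of like score. From the lowest to the highest of 5 score bands, the share of narrower peaks with a neighbour within 10 kb went from 54.2% to 73.5%. Members stood between 80.0% and 87.0% in every band. In the band over 800 the values were 84.9% of 478 members (81.4 to 88.0%) and 73.5% of 882 narrower peaks (70.4 to 76.4%). In the band up to 100 there were only 15 members, and their interval (51.9 to 95.7%) held the 54.2% of the narrower peaks. The median gap in the band over 800 was 1348 bp for members and 1848 bp for narrower peaks, so the 2 kinds were closer to each other there than over all scores.

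**Figure D4:**
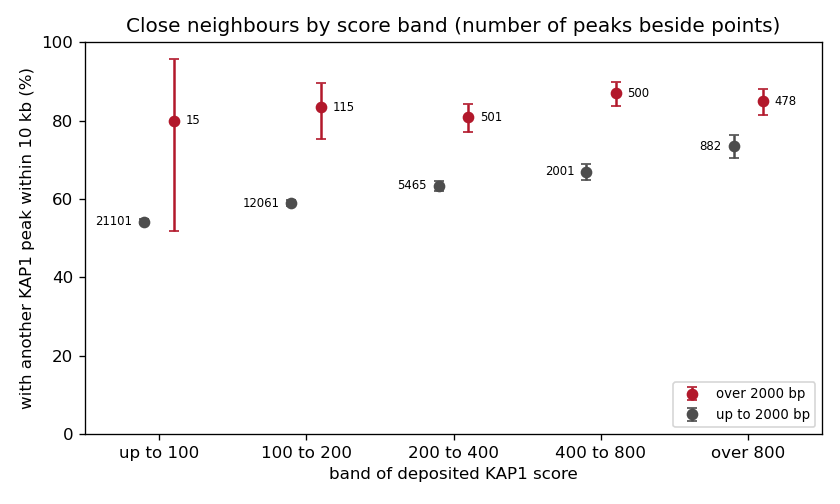
Share of KAP1 peaks off L1 with another KAP1 peak within 10 kb (%), by band of deposited score, with exact 95% binomial intervals and the number of peaks beside each point. Members (red) stay between 80.0% and 87.0%, while narrower peaks (grey) go from 54.2% to 73.5%.

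The nearest neighbours of members were mostly narrow, as were those of narrower peaks. Beside members their median width was 1035 bp and their median score 132. Beside narrower peaks the medians were 914 bp and 104.22. Members were chosen for their width, so a lower width of their neighbours is no result. The nearest neighbour was itself wider than 2000 bp for 212 members (13.2%, 11.6 to 14.9%) and for 1590 narrower peaks (3.83%, 3.65 to 4.02%). Over all peaks off L1 the share was 4.18%. These shares were not compared at like score. The surplus of neighbours was steepest beside the peak: in the first 1 kb from an edge there were 49.2 other peaks per 100 members, against 20.3 per 100 narrower peaks. Between 19 and 20 kb the values had come down to 12.6 and 7.27, which were still apart.

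Some members lay within 50 kb of one another. When members with gaps of at most 50 kb were chained, they formed 1237 groups, of which 999 were single peaks, 169 were pairs and 69 held 3 or more. The groups of 2 or more took in 610 members (37.9%), and 14 groups had at least 5. Narrower peaks were not chained, so no like share stands beside these counts. Of all peaks off L1, 88.3% had another KAP1 peak of any width within 50 kb. The largest, at chr6:37636063-37829827, had 16 members among 50 KAP1 peaks over 193765 bp. Its members covered 49905 bp and had a median score of 326. The next, at chr10:82837624-82947718, had 11 members among 35 KAP1 peaks over 110095 bp, with a median score of 816, and it included the widest peak of all. Next came a tie of 7 members each, at chr7:50402273-50455766 among 12 KAP1 peaks in 53494 bp, and at chr11:22425453-22522555 among 20 KAP1 peaks in 97103 bp. Their median scores were 565 and 372. None of these 4 groups held a listed L1 copy. Those on chromosomes 6, 10 and 7 each held 1 Gm6871 peak, and the one on chromosome 11 held 0.

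Overlap with Gm6871 was rare for broad and for narrower peaks. A Gm6871 peak shared at least 1 base with 17 of 1609 members (1.06%, 0.617 to 1.69%) and with 238 of 41510 narrower peaks (0.573%, 0.503 to 0.651%), beside 0.591% over all peaks off L1. The intervals overlapped, though that of the members lay above the values 0.573% and 0.591%. A wide peak offers more room for an overlap. Per covered length there were 3.87 members with an overlap per Mb of members, against 6.08 per Mb of narrower peaks. Any shared base counts, so the room for an overlap also includes the width of the Gm6871 peak. Division by KAP1 width alone therefore raises the values of narrow peaks, and which kind is ahead cannot be read from them. When only the central 500 bp of every KAP1 peak were counted, the shares were 0.435% (0.175 to 0.894%) and 0.506% (0.440 to 0.579%), again with overlapping intervals. That window leaves out more of a wide peak than of a narrow one. From the side of Gm6871, 19 of 1277 peaks lay on a member (1.49%, 0.898 to 2.31%) and 233 on a narrower KAP1 peak off L1 (18.2%, 16.2 to 20.5%). These 2 shares also follow the sizes of the groups. Members made up 3.73% of the KAP1 peaks off L1, and 17 of the 255 such peaks with an overlap.

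Among the members, overlap was most frequent in the widest. Between 2000 and 3000 bp, 6 of 1259 members shared a base with Gm6871 (0.477%, 0.175 to 1.03%), beside 0.510 to 0.864% in the 4 bands of narrower peaks. Between 3000 and 5000 bp it was 5 of 299 (1.67%, 0.545 to 3.86%), and over 5000 bp it was 6 of 51 (11.8%, 4.44 to 23.9%). Per covered Mb these came to 2.02, 4.599 and 17.4. The bands of narrower peaks stood at 20.3 up to 500 bp and then at 6.41, 5.55 and 4.24. Since this measure raises the values of narrow peaks, it cannot rank the widest members against the narrowest peaks. The 6 over 5000 bp included chr9:3021930-3027973 and chr17:39979488-39985898, where a Gm6871 peak was wider than 2000 bp as well. The share without them was not computed. The median KAP1 score of all peaks in that band was 1514.78. By score, 9 of the 17 had a KAP1 score over 800, where the share was 1.88% (0.864 to 3.54%) for members and 0.794% (0.320 to 1.63%) for narrower peaks. Members had the lower share over 200 and up to 400 (0.798% against 1.08%) and over 400 and up to 800 (0.400% against 0.850%). Over 100 and up to 200 the shares were 0.870% and 0.589%. Up to 100 they were 6.67%, from 1 of 15 members, and 0.398%. The intervals overlapped in every band, so no order at like score can be read from them. None of the 160 members on chromosome 8 and none of the 5 on X had a Gm6871 peak. A count of 0 among 160 allows a share of up to 1.88%, so a share like that of all members was not detectable as different at this number.

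**Figure D5:**
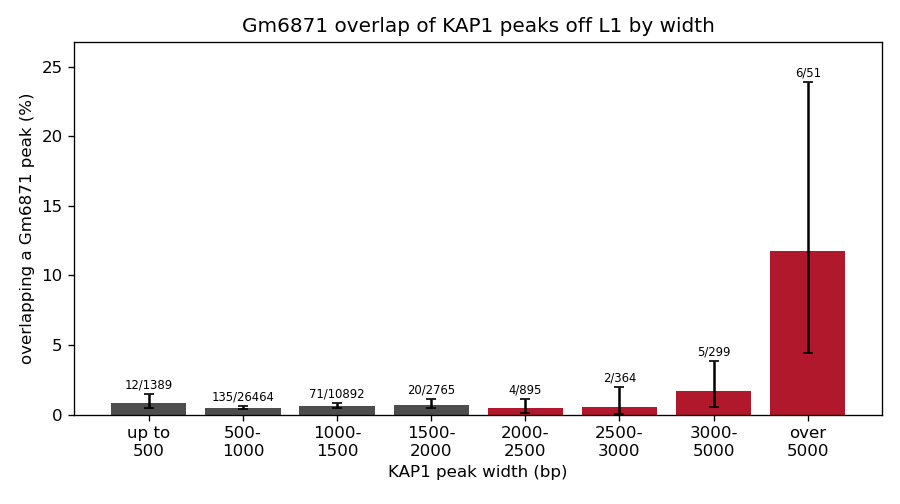
Share of KAP1 peaks off L1 that overlap a Gm6871 peak (%) by KAP1 peak width (bp), with exact 95% binomial intervals and the counts above each bar. Grey bars are narrower peaks and red bars members. The share stays under 1% up to 3000 bp and is 11.8%, from 6 of 51 peaks, over 5000 bp.

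The highest Gm6871 score on a member, 3100, was also the highest in the Gm6871 list, and the peak lay whole within chr4:43553567-43556698, a member of 3132 bp. The next, with Gm6871 scores of 470.35 and 130.96, lay on 1 member at chr9:3021930-3027973 (6044 bp, KAP1 score 3100). After it stood chr3:88193385-88195703 (Gm6871 score 338.9), followed by chr17:85370012-85374161 (291.79), chr11:11725676-11727719 (273.94) and chr9:2999904-3003189 (257.51). The last of the 10 were chr4:11104724-11112187 (169.47), chr17:39979488-39985898 (119.57 and 53.07), chr2:162900468-162903066 (100.15) and chr18:21285122-21287561 (98.5). The KAP1 scores of these 10 ran from 55.78 to 3100. In 17 of the 19 pairs the Gm6871 peak lay wholly inside the member. The distance between the midpoints of the 2 peaks ranged from 19.5 bp on chromosome 11 to 4733 bp at chr9:3021930-3027973.

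A few of these shared places were broad in both libraries. The median width of all Gm6871 peaks was 409 bp, and 7 of the 1277 were wider than 2000 bp. Of those 7, 4 lay on a member, and they had widths of 3827 bp on chromosome 17 and 2769, 5121 and 3014 bp on chromosome 9. The 3 members concerned were chr17:39979488-39985898 (6411 bp), chr9:2999904-3003189 and chr9:3021930-3027973. The chromosome 9 pair lay at the start of the KAP1 list for that chromosome, with the first of them being its first peak and the other beginning 22026 bp further on. Each of the pair had 17 other KAP1 peaks within 50 kb, while the member on chromosome 17 had 0. Whether these places give high signal in the input libraries was not tested. Without the 7 wide Gm6871 peaks, a setting chosen after seeing the data, 0.932% of members (0.523 to 1.53%) and 0.561% of narrower peaks overlapped Gm6871.

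Gm6871 peaks in the neighbourhood were counted as well, since this depends less on width. A Gm6871 peak lay within 10 kb of 66 members (4.10%, 3.19 to 5.19%) and of 916 narrower peaks (2.21%, 2.07 to 2.35%). Over all peaks off L1 the share was 2.28%. Within 50 kb the shares were 11.4% (9.92 to 13.1%) and 6.92% (6.68 to 7.17%), beside 7.09% over all peaks off L1. Peaks that overlapped Gm6871, 17 members and 238 narrower peaks, count as near throughout, so these shares are not separate from the overlap. Within 10 kb, the 5 bands of score differed. The values for members and narrower peaks were near each other at scores over 200 and up to 400 (3.19% and 3.22%) and over 400 and up to 800 (3.80% and 3.30%). They were 3.48% (0.956 to 8.67%) and 2.26% (2.01 to 2.54%) over 100 and up to 200, and 5.23% (3.41 to 7.62%) and 2.38% (1.48 to 3.62%) over 800, with overlapping intervals in both. Up to 100 they were 13.3% and 1.80%, the former from 2 of 15 members (1.66 to 40.5%).

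L1 copies lay at like distances from broad and narrower peaks. By rule no member touches a copy, and the median distance to the nearest was 191372 bp for members and 176788 bp for narrower peaks. A copy lay within 10 kb of 105 members (6.53%, 5.37 to 7.84%) and of 2989 narrower peaks (7.20%, 6.95 to 7.45%). The subfamilies of the copies nearest to these peaks differed in order. An L1Md_F2 copy was nearest for 42 of the 105 members (interval 30.6 to 50.02%) and for 793 of the 2989 narrower peaks (26.5%, 24.95 to 28.2%). L1Md_F2 made up 24.6% of the whole L1 list. The list counts each copy once, whereas a copy nearest to several peaks counts once for each. L1Md_T, a subfamily with copies still able to move, was nearest for 22.9% (15.2 to 32.1%) of these members and 33.3% (31.6 to 35.0%) of these narrower peaks. For L1Md_A, another such subfamily, the values were 19.05% and 16.9%. The 3 members nearest to a copy were chr2:150022281-150024507 (82 bp from an L1_Mus3 copy), chr17:93339876-93342149 (123 bp from L1Md_A) and chr12:20788617-20791132 (270 bp from L1Md_F2).

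On L1 itself broad peaks were less frequent. Of 1930 KAP1 peaks on L1, 38 were wider than 2000 bp (1.97%, 1.40 to 2.69%), against 3.73% (3.55 to 3.91%) off L1. Their median score, 609, and width, 2310 bp, were near those of the members. Gm6871 peaks overlapped 7 of these 38 (18.4%, 7.74 to 34.3%), against 1.06% of the members, and these intervals did not overlap. Of the 1892 narrower peaks on L1, 40 overlapped Gm6871 (2.11%, 1.51 to 2.87%), beside 0.670% over all KAP1 peaks. The interval of these narrower peaks on L1 lay below that of the 38 and overlapped that of the members (0.617 to 1.69%). The title of the KAP1 list points to reads placed at 1 position only, which touches near-identical L1 copies, and its part in these values was not tested.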

How the data were processed

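Peaks of the KAP1 and Gm6871 ChIP libraries were compared by position. The authors deposited 1 peak list per library, which gives each peak a start, an end and a score. Peak names begin with MACS, per the files. The submitters' processing notes list Bowtie 0.12.5 and mm9. The sources used here do not state the caller settings, how inputs were used or what the score means. L1 positions were read from the names in the deposited mouse L1 table, whose expression values were not used.

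Each peak off L1 was assigned by width at 2000 bp. Reading L1 starts from 0 or 1 changed 0 members. Overlap meant at least 1 shared base, and gaps were edge to edge. Shares carry exact binomial intervals at 95% (scipy 1.17.1, Python 3.11.15). The code for overlaps and gaps was tested on simulated positions, and the number of KAP1 peaks with a Gm6871 peak against bedtools 2.31.1. No test was run, since each group is 1 library. The members, bands and alternatives were chosen with earlier results of these data known. Bands by chromosome, 5 Mb windows and the width of neighbours were added after the values were seen. Peaks were named by rule: the 5 widest, the 5 of highest score, 5 on either side of the limit, the 10 with the strongest Gm6871 peak, the 3 largest groups (with the group tied for the last place added after it was seen) and the 3 nearest to L1. The members on X were named after their number was seen.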

Additional observations from a re-analysis of the deposited data

How the results depend on the processing

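Of 32 recomputed values, 15 stayed within the interval of the reported value, or within 1.5 times for counts and gaps, and 17 did not. Members stayed closer to their neighbours than narrower peaks under both alternatives that gave each a gap, midpoints and KAP1 scores of at least 100. The number of members depended on the limit, at 4374 with 1500 bp and 350 with 3000 bp. With 1500 bp the median gap was 2313 bp, 77.9% had a neighbour within 10 kb, and the broad share was 15.8% on chromosome 8 and 2.73% on X. With 3000 bp, 3.14% of members overlapped Gm6871. The share of members with a neighbour was 74.2% within 5 kb and 97.2% within 50 kb. Between midpoints the members' median distance was 3612 bp. With KAP1 scores of at least 100 the median gaps were 3053 bp for members and 13915 bp for narrower peaks, 0.754% of narrower peaks overlapped Gm6871, and the broad share on chromosome 8 was 11.4%, the last chosen after seeing the data. With Gm6871 scores of at least 100 the overlap was 0.559% for members and 0.270% for narrower peaks. In the central 500 bp it was 0.435% for members (0.175 to 0.894%) and 0.506% for narrower peaks. The members' interval holds the value of the narrower peaks, so no order can be read from this setting. No paired analysis was possible because each ChIP has 1 library and no test was run.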

Other observations

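Along the chromosomes, the KAP1 peaks off L1 fell into 539 windows of 5 Mb, and 408 of these (75.7%) held at least 1 broad peak, with a median of 2. The 10 windows with most members, picked after their counts were seen, held 173 of the 1609 (10.8%). The broad share in these windows ran from 6.91% to 12.3%, beside 3.73% over all peaks off L1. Picking windows by their count of members favours windows rich in KAP1 peaks and high broad shares. The fullest was chr7:25000001-30000000, where 24 of 277 peaks were broad (8.66%), followed by chr11:20000001-25000000 with 22 of 179 (12.3%), chr6:35000001-40000000 with 18 of 164 (10.98%) and chr8:70000001-75000000 with 17 of 191 (8.90%).

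Of the KAP1 peaks, 20 members, 12 narrower peaks off L1 and 1 peak on L1 carried a score of exactly 3100, and 4 members, 3 narrower peaks off L1 and 1 peak on L1 stood above it. The highest Gm6871 score had the same value. Peaks at 3100 have no order among themselves.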
